A study of Mus musculus with 8 samples.

Results

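TM3 cells, an established mouse line labelled as Leydig cells (the testis cells that make testosterone), were compared with and without exposure to a chemical. Bisphenol A (BPA), a plastics monomer with estrogen-like activity, was given to one set of TM3 cultures, and the other set is labelled normal. The 23 genes described here are abundant genes whose reads were higher in both BPA RNA-seq libraries than in both normal RNA-seq libraries. They were chosen by the counts themselves, out of 12404 genes in the table, of which 1756 averaged 1000 reads or more over the 4 libraries. Reads were scaled to counts per 1000000 reads of the column total (CPM), and a gene was taken when its lower BPA CPM was at least 2 times its higher normal CPM. The rule left out 6 names, of which Efna5 and Mia2 met the criterion and Anp32b, Arf6, Rheb and Ythdc1 did not. With those names included, 25 of the 1756 abundant genes (1.42%) met the criterion, and 18 (1.03%) met its mirror image, with the lower normal CPM at least 2 times the higher BPA CPM. Because the same libraries chose the genes, their values below are a description and no test is attached to them. In bulk RNA, a change in the number of cells of a type and a change in RNA per cell cannot be told apart.

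Each condition had 2 RNA-seq libraries, which the design text says also served as the input, and 2 m6A immunoprecipitation (MeRIP) libraries, in which an antibody enriches RNA fragments carrying N6-methyladenosine. RNA was isolated with an mRNA kit and fragmented before library preparation, per the labels' protocols. All cells carried the same labels apart from the exposure, and the labels used here give neither the dose nor the time of BPA and do not say whether replicates were separate cultures. The 4 RNA-seq libraries held between 6305121 and 10455643 reads. The median gene had 15 and 2 reads in BPA replicates 1 and 2 and 233 and 150 reads in normal replicates 1 and 2. Fewer than 10 reads were counted for 48.8% and 54.7% of the genes in the BPA libraries and for 28.2% and 22.6% in the normal libraries, so the BPA reads were spread over fewer genes. The number of distinct RNA fragments behind the reads was not measured, and the part of this difference in the values of the 23 genes was not tested. Of 13 Leydig cell markers, 3 (Fdxr, Scarb1 and Tspo) were in the count table, with a summed level of 97.8 to 164 CPM in the normal and 122 to 289 CPM in the BPA libraries. The defining genes Star, Cyp11a1, Cyp17a1, Hsd3b1 and Lhcgr were not among its rows and were not analysed here. Of the 10 smooth muscle and endothelial markers 3 were in the table and summed to 7.75 to 59.7 CPM in the normal and 56.8 to 201 CPM in the BPA libraries, and the macrophage markers (2 of 9 in the table) to 7.85 to 12.1 and 19.9 to 69.2 CPM. Defining genes of these types, among them Pecam1, Cdh5 and Myh11 and the macrophage genes Adgre1, Csf1r and Ptprc, were not counted. Both sums leave them out. The Sertoli cell markers (7 of 12) summed to 583 to 1019 and 757 to 772 CPM. Amh, Cldn11, Fshr, Gata1 and Sox9, which define Sertoli cells, were not among the counted genes, so that sum leaves them out. The germ cell markers (1 of 10) summed to 0 and 0 to 4.76 CPM. The part of these differences in the values of the 23 genes was not tested.

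The 23 genes do not belong to one textbook pathway. They span ubiquitin removal and attachment, chromosome segregation and transcription, RNA binding, membrane signalling and transport, and housekeeping metabolism. Ubiquitin is a small protein that is attached to other proteins by ligases such as those of the RING finger family and taken off by deubiquitinases. The balance between both decides whether many proteins reach the proteasome. Cell division, in which some of the other genes act, relies on cohesin to hold sister chromatids together, on E2F factors to switch on replication genes and on the central spindle to finish cytokinesis.

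The start regions of the genes are shown first, since the genes have only the expression difference in common by choice and the start sequence was not used to choose them. RefSeq windows of 300 bases (250 before to 50 after an annotated start, GRCm38.p6) were found for 19 of the 23 genes, in 34 windows. The windows of 3 genes, picked after the matches were known, are printed: Slc30a9 with the largest separation of the groups, Hprt with nearly equal replicates, and Ttc19 with the only full cAMP response element. Capitals mark GGGCGG (the GC box, bound by Sp1-type factors), CCAAT and TGACGTCA (the cAMP response element) on either strand.
Slc30a9, chr5:67306705-67307004, plus strand: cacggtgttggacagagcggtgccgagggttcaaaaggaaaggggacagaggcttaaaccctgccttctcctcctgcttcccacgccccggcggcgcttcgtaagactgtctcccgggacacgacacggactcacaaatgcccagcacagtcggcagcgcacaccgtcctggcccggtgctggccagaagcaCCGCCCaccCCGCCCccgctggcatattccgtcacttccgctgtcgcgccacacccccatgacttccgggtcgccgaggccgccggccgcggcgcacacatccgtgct
Hprt, chrX:52987828-52988127, plus strand: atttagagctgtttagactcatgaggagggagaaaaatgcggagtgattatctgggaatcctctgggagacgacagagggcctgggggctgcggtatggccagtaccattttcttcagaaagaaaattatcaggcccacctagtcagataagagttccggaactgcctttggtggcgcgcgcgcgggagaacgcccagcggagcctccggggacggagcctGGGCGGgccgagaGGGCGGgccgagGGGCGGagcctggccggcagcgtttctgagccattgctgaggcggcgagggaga
Ttc19, chr11:62281223-62281522, plus strand: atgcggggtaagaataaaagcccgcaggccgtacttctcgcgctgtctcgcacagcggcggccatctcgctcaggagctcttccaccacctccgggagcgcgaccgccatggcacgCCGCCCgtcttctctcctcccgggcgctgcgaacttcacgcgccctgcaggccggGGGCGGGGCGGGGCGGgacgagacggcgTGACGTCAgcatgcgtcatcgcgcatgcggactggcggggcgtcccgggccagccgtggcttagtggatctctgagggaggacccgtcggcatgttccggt

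Most of these starts were GC-rich and held a GC box, as did most starts of abundant genes. The GC box GGGCGG was in 27 of the 34 windows (79.4%), against 71.1% of 1759 windows of all abundant genes and 35.7% of 32851 windows of all genes. The median GC content was 66.2% in the windows of these genes, 63.7% in those of abundant genes and 52.7% in all windows. CCAAT was in 17 of 34 windows (50%), against 38.3% of abundant and 37.4% of all windows. The cAMP response element TGACGTCA was in 1 window (2.94%), that of Ttc19, against 2.96% and 1.79%. Its first part TGACG, which also lies inside the full element, was in 13 windows (38.2%), against 34.7% and 20.8%. The E-box CACGTG was in 1 window, that of E2f3, against 11.9% of abundant and 7.15% of all windows.

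Other motifs searched on both strands were rare in these windows. The ETS motif CCGGAAG was in 3 windows (8.82%), of S100pbp and Slc30a9, against 16.9% of the windows of abundant genes and 8.86% of all windows. TATAAA was in 1 window, of Ankrd44 (2.94% against 7.56% and 13.6%). The NRF1 motif was in 4 windows (11.8% against 12.7% and 4.60%). The heat shock element GAANNTTC was in 0 windows (5.86% of abundant and 7.86% of all windows), AAGATGGC of YY1 in 0 (5.12% and 2.75%) and TGANTCA of AP-1 in 0 (4.38% and 7.81%). The full estrogen response element was in 0 windows, in 0% of those of abundant genes and in 0.0700% of all windows. These are matches of letters in short windows, and several genes contribute more than 1 window.

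**Figure D1:**
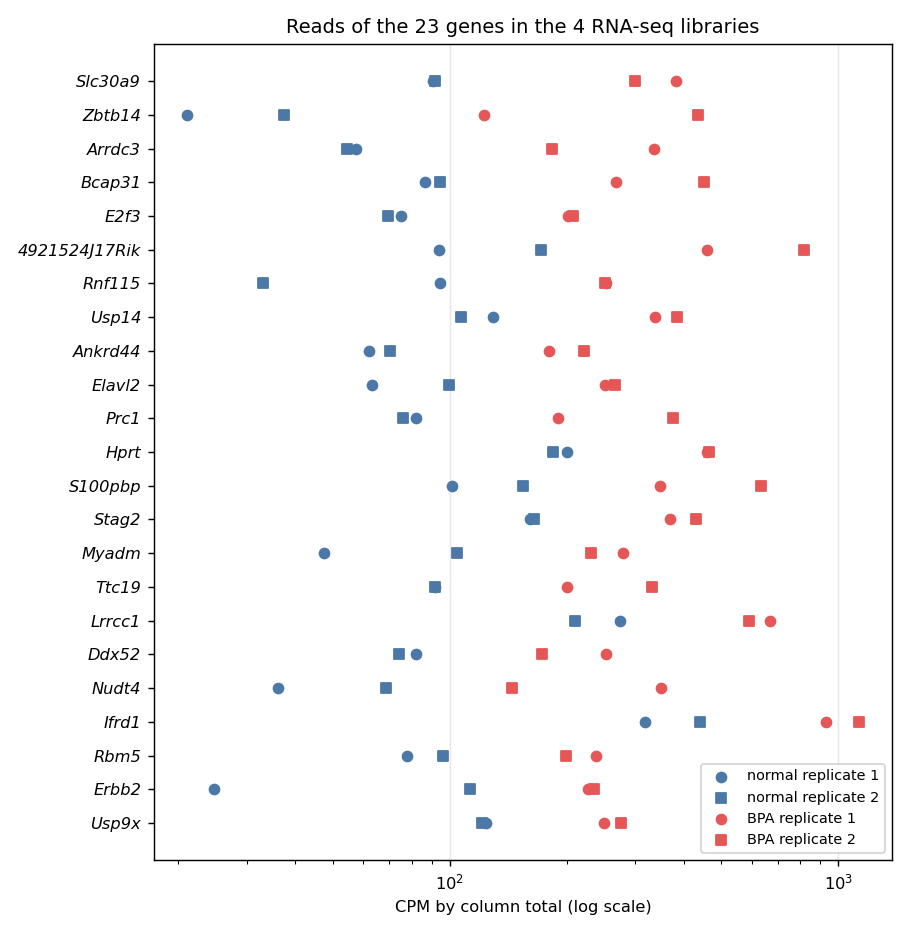
CPM by column total (log axis) of the 23 genes, 1 point per library, with circles for replicate 1 and squares for replicate 2, ordered by the ratio of the lower BPA to the higher normal CPM. The red BPA points lie right of the blue normal points in each row by construction, with replicates close together for Hprt and E2f3 and far apart for Zbtb14 and Nudt4.

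Of the 23 genes, 4 act in or with the ubiquitin system. Usp14, a deubiquitinase that works on the proteasome itself, had 338 and 384 CPM in BPA replicates 1 and 2 and 129 and 107 CPM in normal replicates 1 and 2. Usp9x, a large X-linked deubiquitinase, had 249 and 276 CPM in BPA against 124 and 121 in normal cells. Rnf115, a RING finger ubiquitin ligase, had 253 and 251 CPM against 94.5 and 33.1. Both BPA libraries agreed closely for these 3 genes, and the spread in Rnf115 came from the normal pair. Arrdc3, an alpha-arrestin that links membrane receptors to NEDD4-type ligases, had 336 and 184 CPM in BPA and 57.4 and 54.4 in normal cells. Here the normal libraries were close together and BPA replicate 1 was the higher of its pair.

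The wider ubiquitin and SUMO list showed a mixed picture. Of its 76 genes 68 were tested, with 42 positive and 26 negative log2 fold changes and a median of 0.24. edgeR called 0 of them at an adjusted p of 0.05, where it called 0 of 8645 genes in the whole table (0%). Before adjustment 3 were higher and 1 lower with p under 0.05, where 1212 genes of the whole table (14%) were, 117 higher and 1095 lower. That background depends on the genes fitted: in an edgeR fit of the 1756 abundant genes alone it was 56 genes, 43 higher and 13 lower. The sign and p-value counts of this list include 2 of the 23 genes, chosen for being higher in the same libraries. In the edgeR fit of the whole table the median over the 1756 abundant genes was 0.33. Among the 33 abundant genes of the list outside the 23, 8 lay above the normal range in both BPA libraries, 4 lay below it in both, and 21 overlapped. Over all abundant genes 338 (19.2%) lay above and 286 (16.3%) below. The proteasome particle that Usp14 binds had other values: of 9 abundant genes besides Usp14 in a list of the 19S particle, 0 lay above in both BPA libraries, 3 lay below in both and 6 overlapped. In a list of alpha-arrestins and NEDD4-type ligases the one other abundant gene was Nedd4, with 10137 and 8262 reads in BPA libraries and 12076 and 7404 in normal libraries. Its CPM ranges overlapped.

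A set of genes acts in chromosome segregation and the cell cycle. Stag2, an X-linked subunit of cohesin, had 369 and 432 CPM in BPA and 161 and 165 in normal cells. E2f3, a transcription factor that drives entry into S phase, had 202 and 208 CPM against 75.1 and 69.3. Prc1, which bundles microtubules at the central spindle during cytokinesis, had 190 and 377 CPM against 82.1 and 75.96. Stag2 and E2f3 had tight replicates in both conditions, and for Prc1 BPA replicate 2 stood above BPA replicate 1. Lrrcc1, a centrosomal protein gene, had 666 and 588 CPM in BPA and 274 and 211 in normal cells. Zbtb14, a zinc finger repressor, had 122 and 437 CPM against 21.1 and 37.5. It had the largest ratio of group means, 9.53, and also the widest gap between BPA replicates, 3.57 times.

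The partners of these proteins differed from gene to gene. Over all abundant genes 19.2% lay above in both BPA libraries and 16.3% below, and the counts that follow are to be read against these shares. Among the 8 other abundant cohesin genes, 1 lay above in both BPA libraries (Smc3, with 11911 and 8980 reads against 9544 and 7575), 1 below (Rad21, 1815 and 1575 against 2801 and 2801 reads) and 6 overlapped. Pds5a and Pds5b, which regulate cohesin release, had 2716 and 2677 reads in BPA replicate 1 and 6 and 8 reads in BPA replicate 2. Tfdp1, the dimer partner of E2F factors, had 7366 and 4422 reads in BPA against 2020 and 2923 in normal cells. The ratio of its lower BPA to its higher normal CPM was 1.80. Tfdp1 was the 1 other abundant gene of the E2F list, whose 10 tested genes, E2f3 included, had 4 positive and 6 negative log2 fold changes. Of the 6 other abundant central spindle genes 3 lay above in both BPA libraries (Kif20b, Ect2 and Anln, by ratios of 1.06, 1.10 and 1.06), 1 below (Birc5) and 2 overlapped.

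RNA-binding and RNA-processing genes formed a smaller group, given here together with the regulator Ifrd1, which is not one of them. Elavl2, a member of the Hu family that binds AU-rich RNA, had 252 and 266 CPM in BPA and 63.0 and 99.6 in normal cells. Rbm5, a splicing regulator, had 238 and 199 CPM against 77.8 and 96.2, and Ddx52, a DEAD-box RNA helicase, had 253 and 173 against 82.0 and 74.1. Ifrd1, a transcriptional co-regulator induced by growth factors and stress, had 932 and 1131 CPM in BPA against 318 and 442 in normal cells. The BPA replicates of these genes differed by 1.06 to 1.46 times. In the list of immediate early and stress-response regulators that contains Ifrd1, 46 of 54 genes were tested, 23 with positive and 23 with negative log2 fold changes, a median of -0.03 and 0 edgeR calls. Before adjustment 2 were higher and 3 lower with p under 0.05, against 14% of all tested genes in either direction. In the edgeR fit of the 1756 abundant genes alone that background was 56 genes. The sign and p-value counts of this list include Ifrd1, which was chosen for being higher in the same libraries. Of the 12 other abundant genes in the list 2 lay above, 3 below and 7 overlapped, where 19.2% of all abundant genes lay above and 16.3% below.

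Membrane receptors and transporters were also represented. Erbb2, the HER2 receptor tyrosine kinase, had 227 and 236 CPM in BPA and 24.8 and 113 in normal cells. Its BPA libraries were nearly equal, while its normal libraries differed 4.54 times, the widest normal gap among the 23 genes. Slc30a9, of the zinc transporter family, had 382 and 300 CPM against 90.7 and 91.5 and the largest ratio of the lower BPA to the higher normal CPM, 3.28. Bcap31, an endoplasmic reticulum membrane chaperone, had 268 and 451 CPM against 86.5 and 94.7. Myadm, a membrane protein gene, had 279 and 232 CPM in BPA against 47.6 and 104 in normal cells, with a wider gap in the normal pair.

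Of the 3 other abundant genes in the ERBB list 2 lay above in both BPA libraries, 0 below and 1 overlapped, and the zinc transporter list gave the same tally, where 19.2% of all abundant genes lay above and 16.3% below. Of the ERBB list, Shc1 and Gab1, which carry receptor signals inward, lay above in both BPA libraries, with ratios of the lower BPA to the higher normal CPM of 1.37 and 1.28. Egfr, the related receptor gene, overlapped, with 957 and 2890 reads under BPA against 3733 and 2588. Among zinc transporters Slc30a1, the zinc exporter of the plasma membrane, had a ratio of 1.86 and Slc39a10 one of 1.23. Mt1, a zinc-binding metallothionein gene in the same list, overlapped, with 2772 and 1065 reads under BPA against 7226 and 1800.

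The remaining genes include 3 with metabolic roles. Hprt, the purine salvage enzyme often used as a reference gene, had 460 and 465 CPM in BPA and 201 and 185 in normal cells. Its replicates differed by 1.01 times in BPA, and the ratio of group means was 2.40. Nudt4, a hydrolase of inositol pyrophosphates and dinucleotides, had 350 and 144 CPM against 36.2 and 68.5, and Ttc19, a mitochondrial factor for respiratory complex III, had 200 and 332 against 91.6 and 91.8. Nudt4 had replicates that were far apart in both conditions, and Ttc19 had them far apart in BPA alone. Ankrd44, an ankyrin-repeat subunit of a protein phosphatase complex, had 180 and 222 CPM in BPA and 62.0 and 70.2 in normal cells. S100pbp, which encodes a binding partner of S100P, had 348 and 635 CPM against 101 and 155, and the RIKEN gene 4921524J17Rik (ENSMUSG00000036934) had 459 and 819 against 93.6 and 172. In the purine list, 1 of 4 other abundant genes lay above in both BPA libraries (Adss), 2 below (Ppat and Gmps) and 1 overlapped.

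**Figure D2:**
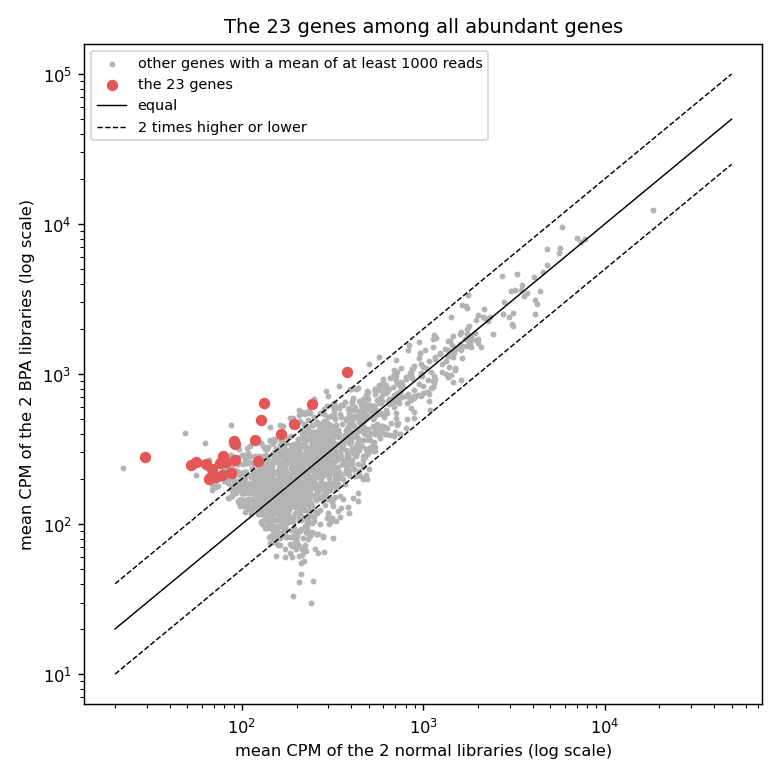
Mean CPM of the 2 BPA libraries against that of the 2 normal libraries, both on log axes, for genes averaging 1000 reads or more, with the 23 genes in red. The red points lie above the upper dashed line of 2 times, and further grey genes lie beyond it whose libraries did not all separate by that factor or which were left out by name.

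Across the 23 genes the ratio of group means ran from 2.14 (Usp9x) to 9.53 (Zbtb14), with a median of 3.18. The higher replicate exceeded the lower by a median of 1.21 times in both BPA and normal cells, against 1.73 and 1.379 times over all abundant genes. The rule favours genes with close replicates, so this closeness is part of the choice. In 11 of the 23 genes the replicates differed by less than 1.5 times in both conditions. BPA replicate 2 was the higher BPA library in 15 genes and normal replicate 2 the higher normal library in 14. Just inside the limit of 2 were Rbm5 (2.07), Erbb2 (2.02) and Usp9x (2.005), and just outside were Rtf1 (1.99), Ufl1 (1.99) and Rnf219 (1.97). Rnf219 shows what the limit does not capture, since it had 3714 reads in BPA replicate 1 and 307 in BPA replicate 2.

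**Figure D3:**
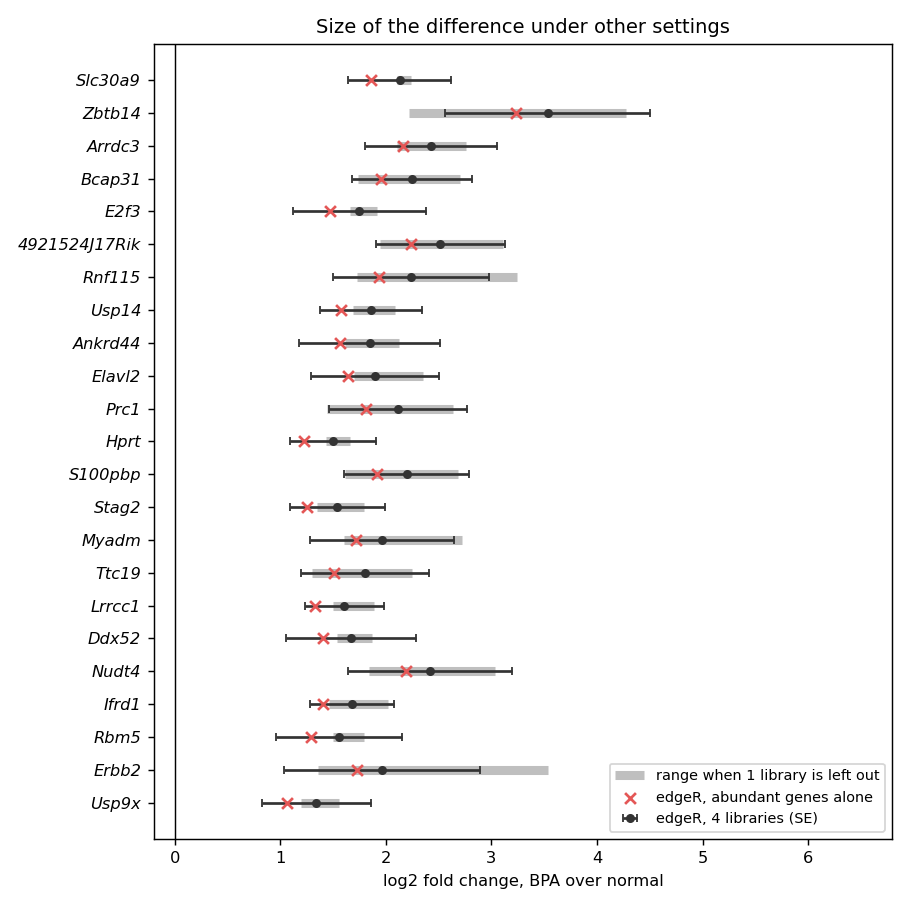
log2 fold change of BPA over normal for the 23 genes: black points with SE bars are edgeR values from 4 libraries, red crosses the fit of abundant genes alone, and grey bars the range when 1 library is left out. Each value lies right of 0, as the choice of genes requires, between 1.19 and 4.27 with a library left out.

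In edgeR, with trimmed-mean scaling over all tested genes, the log2 fold changes of the 23 genes ran from 1.34 to 3.53 with a median of 1.90 (2 libraries per group). Usp9x had 1.34 ± 0.52 (SE), Hprt 1.502 ± 0.41, Ifrd1 1.68 ± 0.40, Slc30a9 2.13 ± 0.49 and Zbtb14 3.53 ± 0.97. A fit of the abundant genes alone moved the values down, to a median of 1.64 and a range of 1.06 to 3.23. In that fit the median of all abundant genes was 0.06, in place of 0.33, so part of each value follows the genes used for scaling. Scaling by DESeq2's size factors moved the values up instead, to 1.47 for Usp9x, 1.64 for Hprt and 3.66 for Zbtb14. Single libraries moved the size by more than its SE in 5 genes. Without BPA replicate 2, Zbtb14 had 2.22 and Prc1 had 1.44. Without normal replicate 1, Rnf115 had 3.24, and without normal replicate 2, Myadm had 2.72 and Erbb2 had 3.53.

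None of the 23 was among the edgeR calls (0 of 23), and DESeq2 called 7 of them, where it called 3.08% of all tested genes. Nothing is read from either count, since the rule used these libraries. The edgeR count over the whole table depended on single libraries together with the form of the test. In the default form it was 1877 of 11088 genes (16.9%) without BPA replicate 1, with 15 of the 23 among them, and 201 of 11129 (1.81%) without BPA replicate 2, with 1 of the 23. In the newer quasi-likelihood form it was 0 in both cases. Without normal replicate 1 the default form called 3 genes (0.0288%), and without normal replicate 2 it called 4 (0.04%), with 0 of the 23 in both.

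Of the 23 genes 10 overlap another annotated gene in RefSeq, and no source used here states whether the counting used strand. Of the 3 neighbours named here, 0 lay above their normal range in both BPA libraries. Mien1, beside Erbb2, had 1 and 84 reads in BPA against 0 and 83 in normal cells. Thoc1, beside Usp14, had 4 and 500 against 608 and 195, and Ncor1, beside Ttc19, had 3194 and 1083 against 3696 and 2308.

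The IP libraries did not enter the choice, while the input of the m6A peaks comes from the RNA-seq libraries that did, so whether a peak is listed is only partly independent of it. The authors' deposited table lists 3331 differential peaks with 1 pooled value per condition, so there is no replicate spread and no test of the IP values here. A peak was listed for 6 of the 23 genes, or 26.1% (exact Clopper-Pearson 95% interval 10.2% to 48.4%, for counting error only), against 996 of the 1756 abundant genes (56.7%). That interval treats the 23 genes as independent draws, although shared libraries chose them, and the difference between the shares was not tested. Genes with more reads were more often in the peak table, and the 23 genes lie at the low end of the abundant range. Of the 13 with a mean of 1000 to 1500 reads 1 had a peak, where 44.96% of 625 abundant genes in that range did. In the range of 1500 to 2500 reads it was 3 of 6 against 54.1%, and from 2500 to 5500 reads 2 of 4 against 69.2%. Of the 18 abundant genes on the opposite side 9 (50%) had a peak, and of the 338 above in both BPA libraries by any margin 50.9% did. The 17 genes with no listed peak are Slc30a9, Zbtb14, Arrdc3, E2f3, 4921524J17Rik, Rnf115, Usp14, Ankrd44, Elavl2, Prc1, Myadm, Ddx52, Nudt4, Ifrd1, Rbm5, Erbb2 and Usp9x. A gene missing from a table of differential peaks may still carry m6A.

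**Figure D4:**
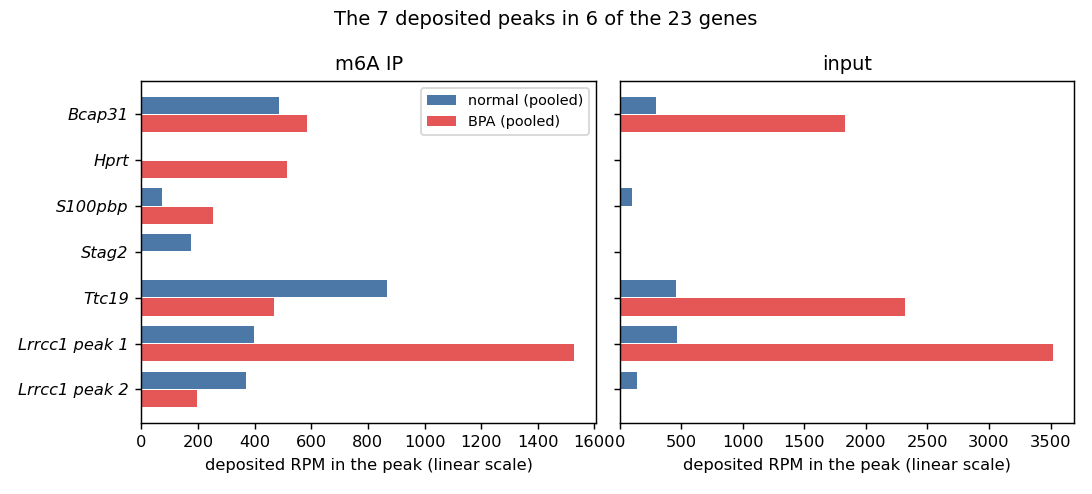
Deposited RPM (linear axes from 0) of the 7 peaks in 6 of the 23 genes, in the IP at left and the input at right, with 1 pooled value per condition and no error bars. Input is higher in BPA at Bcap31, Ttc19 and Lrrcc1 peak 1, and near 0 in BPA at the other 4 peaks.

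The 6 genes held 7 peaks, with coordinates taken as GRCm39. Of the 6 genes, 3 (Bcap31, Hprt and Stag2) lie on the X chromosome, against 3.71% of the 996 abundant genes with a peak. This describes 6 genes only, and the X share was not tested. The peaks were narrow, with 25 to 150 bases in their blocks. In the IP libraries, which the rule did not use, 4 of the 7 peaks had a higher pooled value in BPA and 3 a lower one. The median log2 change in IP (with 1 RPM added) was 0.27, against 0.16 over 1739 peaks of abundant genes, of which 53.8% were higher.

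At 3 peaks the input followed the gene. Bcap31 (chrX:72730159-72732271, minus strand, 3 blocks) had 290 reads per 1000000 (RPM) in normal and 1831 in BPA input, and 486 and 587 RPM in the IP. Ttc19 (chr11:62205757-62205806, plus strand) had 458 and 2318 RPM in input, and 869 and 468 in the IP. The first Lrrcc1 peak (chr3:14628035-14628059, plus strand) had 466 and 3519 RPM in input, and 397 and 1529 in the IP. On the RPM scale input in BPA was 6.31, 5.06 and 7.55 times the normal value, where the median log2 input change over 1739 peaks of abundant genes was -0.85. Those RPM values rest on 1703692 reads in normal and 818212 in BPA input, while the count table holds 17973125 and 15118991 reads. Scaled to the count table, the same input reads gave 3.60, 2.89 and 4.31 times the normal value. The IP was 1.21, 0.539 and 3.85 times the normal value on the RPM scale, which rests on 5402182 and 3908372 reads. In the authors' deposited table the change of IP over input was negative at all 3 of these peaks, with log2 values of -1.61, -2.45 and -0.19 and false discovery rates of 3.85e-78, 3.85e-245 and 0.00667. Input enters those values, and the input libraries are the ones that chose the genes.

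At the other 4 peaks the input was near 0 in BPA although the gene's count was higher there. S100pbp (chr4:129043148-129043197, minus strand) had 101 RPM in normal input and 0 in BPA input, and 71.5 and 253 RPM in the IP. The second Lrrcc1 peak (chr3:14632067-14632191, plus strand) had 138 and 1.22 RPM in input, and 370 and 198 in the IP. Hprt and Stag2 had almost no input in either condition. Hprt (chrX:52110448-52110472, plus strand) had 0 and 11.0 RPM in input and 0.370 and 515 in the IP, which is 2 and 2014 reads. Stag2 (chrX:41355309-41358362, plus strand, 2 blocks) had 0 and 1.22 RPM in input and 175 and 0 in the IP, which is 947 and 0 reads. The authors' deposited table gives log2 values of 10.3 for S100pbp, 6.64 for the second Lrrcc1 peak, 5.60 for Hprt and -12.6 for Stag2, each with an input at or near 0 behind it. Of all deposited peaks 68.8% had a positive value, and of the 7 here 3 did. Under 10 input reads in BPA were found at 4 of these 7 peaks and at 43.0% of the peaks of abundant genes, and under 10 in normal input at 2 of 7 and 7.25%.

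At some peaks the input reads recovered in few bases were many beside the gene's counts. The reads behind each RPM value could be recovered. Input reads in a peak were set beside the summed counts of the gene in the same condition. The unit of counting (reads or fragments) is not given for either. The read totals behind the RPM values and the counts also differ, as given above, so the percentages below set unlike counts side by side. The 50 bases of the Ttc19 peak corresponded to 780 input reads beside 1648 gene counts in normal cells (47.3%) and to 1897 beside 3861 in BPA (49.1%). At the Bcap31 peak it was 494 beside 1616 (30.6%) and 1498 beside 5200 (28.8%). The 25 bases of the first Lrrcc1 peak corresponded to 794 beside 4455 (17.8%) and 2879 beside 9582 (30.05%), while the second Lrrcc1 peak, in the same gene, went from 235 reads (5.27%) to 1 read (0.0104%). The S100pbp peak went from 172 reads beside 2222 (7.74%) to 0 beside 7073. At the second Lrrcc1 peak and at S100pbp the listed position had fewer input reads in BPA while the whole gene had more. Whether this unevenness along the gene has a part in the higher counts was not tested.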

How the data were processed

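The authors deposited whole-number counts of reads for each mouse Ensembl gene. The submitters' processing notes name DESeq2 (1.38.3), featureCounts (2.0.1), HISAT2 (2.2.1) and fastp (0.20.1) and the builds GRCm39 and GRCh38, without roles. Column names in the count table carry no assay, and the columns were taken as the RNA-seq libraries. Symbols were found for 12271 of 12404 IDs. The peak table was deposited by the authors from pooled libraries, with RPM values, a log2 fold change, a p-value with its false discovery rate, and a score (the −log10 of the p-value). No source used here names the peak caller or its test. All RPM values were whole multiples of a step within 0.1 read, which gave the reads per peak. 0 of the 7 peaks lay in the GRCm38 span of their gene, so coordinates were taken as GRCm39, 1-based. No genome of that build was used, and peak sequences and exon or UTR positions are not given. Promoter windows are RefSeq's, on GRCm38.p6.

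The whole table was fitted with edgeR 4.0.16 in R 4.3.3 (TMM, filterByExpr with a minimum count of 10 and total of 15, robust dispersions, glmQLFit in its default form, Benjamini-Hochberg at 0.05), and SE values were derived from the F statistic. The code of the fit was checked on simulated counts with set changes, which does not bear on the number of calls in these data. DESeq2 1.42.0 was run as an alternative. After the data were seen, 20 option combinations of edgeR were tried, each with 0 calls and with 676 to 1309 genes at p under 0.05 before adjustment. One of them, the newer form of the quasi-likelihood (legacy off), was used for a time because it gave the counts known from an earlier analysis. The default form was then restored, as the design was written, and the newer form is given as an added alternative. With 2 libraries per group, whose separate origin no label states, p-values measure only the spread between libraries. The genes, lists and tests were chosen with earlier results of these data known. All genes meeting the rule, their peaks and the 3 genes on either side of the limit are named. Lists of partner proteins were added, and genes named from them chosen, after their values were seen.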

Additional observations from a re-analysis of the deposited data

How the results depend on the processing

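Which genes met the rule depended on its settings. The number was 60 with TMM-scaled library sizes, 85 with DESeq2's median-ratio size factors, 69 with a minimum of 500 reads and 94 with a fold of 1.5, and each of these sets held all 23 genes. A minimum of 2000 reads left 6, all among the 23. With the replicate block, in which each BPA library was set against the normal library of the same number, there were 54, with all 23 among them. The lower minimum, the lower fold and the replicate block only relax the rule, and the higher minimum only narrows it. Their overlaps with the 23 genes were therefore fixed in advance. Leaving out 1 library gave between 77 and 184 genes, which held all 23 without either normal library, 21 without BPA replicate 2 and 14 without BPA replicate 1. With a library left out, the lowest BPA CPM of a gene cannot fall and its highest normal CPM cannot rise. The 23 genes therefore still met the fold in each case. Those lost had a mean over the remaining libraries under the minimum of reads, so their loss does not show that their difference rests on the library left out.

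edgeR called 0 genes over the whole table (1212 before adjustment), and DESeq2 called 266, of which 45 were higher. The edgeR count was 0 with DESeq2's size factors and among abundant genes alone. It was 1 (2810013P06Rik) with the replicate block and, again 2810013P06Rik, without a filter on low counts. With 1 library left out it ran from 3 to 1877, where the lone library of an arm is assumed to vary like the other group. The 3 without normal replicate 1 were Taf3, mt-Nd2 and 2810013P06Rik, and the 4 without normal replicate 2 were Inpp4a, Ccdc66, Cebpb and 2810013P06Rik. The newer quasi-likelihood form, added after seeing the data, called 0 (833 before adjustment), 0 with the replicate block and between 0 and 1 with a library left out, the 1 being mt-Nd2. The large leave-one-out counts therefore depend on this option, and the cause was not tested. Same-numbered libraries did not deviate together (r = 0.0029 across 8645 genes, which are not independent replicates). Many of these genes had few reads in a BPA library, so this value cannot exclude a pairing. The main fit did not treat the number as pairing. With the replicate block, edgeR had 199 genes at p under 0.05 before adjustment, 147 higher and 52 lower. The log2 fold changes of the 23 genes were positive in all 345 alternative values, as the choice of genes requires, and 10 moved by more than 1 SE. The share of genes with a peak was 26.1% with a false discovery rate below 0.01 too, and the median IP change was 0.27 with 10 RPM added and in peaks of at least 100 IP reads. Depth limits the genes with few reads, and the 2 libraries per group limit each SE.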
